A study of Mus musculus with 14 samples.

Results

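The RANKL and progesterone paracrine axis of the mammary gland was examined through 7 genes out of the 56414 listed for these tumors. The genes were taken by symbol, as mediators and targets of progestin in mammary tissue, by a rule that holds no measured value, although results of these data were known when it was set. They are *Tnfsf11*, *Tnfrsf11a*, *Tnfrsf11b*, *Wnt4*, *Calca*, *Areg* and *Id4*, and each was found in 1 row. Bulk polyA RNA was sequenced from 14 tumors of C57Bl/6 mice, with 1 library per tumor, to ask how nicotinamide (NAM) altered the transcriptome of established lesions. M/D-driven tumors arose in the mammary gland of females that were 6-9 weeks old when they received a 50 mg pellet releasing medroxyprogesterone acetate (MPA, a progestin) over 90 days, followed by 6 weekly gavages, from week 1 to week 7 with week 4 left out, of the carcinogen 7,12-dimethylbenz[a]anthracene (DMBA). AT3 tumors were grown under the skin from AT3 cells, a mammary carcinoma line, and the labels name neither agent for their hosts. When tumors reached 0.25 cm2, mice were either left untreated (4 M/D-driven and 3 AT3 tumors) or given 0.5% NAM in the drinking water for 10 days (4 M/D-driven and 3 AT3 tumors). All M/D-driven tumors, untreated ones included, therefore came from mice that had been given the progestin pellet, whereas AT3 tumors are replicate grafts of 1 cell line. The model, the number of the experiment and the way of establishing tumors cannot be told apart.

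In the mammary gland, progesterone acts on luminal cells that carry its receptor (*Pgr*), and these cells signal to neighbours that lack it. RANKL, the product of *Tnfsf11*, is the best known of these signals. It binds the receptor RANK (*Tnfrsf11a*) on luminal progenitors and basal cells and drives their division, while osteoprotegerin (*Tnfrsf11b*) is a secreted decoy receptor that captures RANKL. *Wnt4* encodes a WNT ligand released by the same hormone-sensing cells, *Calca* encodes calcitonin and the calcitonin gene-related peptide, *Areg* encodes the EGF receptor ligand amphiregulin, and *Id4* encodes an inhibitor of basic helix-loop-helix factors found in basal cells. Synthetic progestins such as MPA raise RANKL in mouse mammary epithelium, and RANK has been tied to progestin-driven mammary tumors.

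Reads recovered from the deposited values ranged from 40936868 to 84178009 per tumor. NAM-treated M/D tumor 1 stood apart from the 7 others of its model. All 9 epithelial markers were detected in every group. This tumor had the lowest level of 9 of 9 of them (*Epcam*, *Cdh1* and 7 keratins), with a summed level of 7738.8 normalized counts against 273750 to 1143800 in the others, 52.9-fold under their median. Its summed precursor B cell markers (*Rag1*, *Vpreb1* and 5 more) reached 209390 normalized counts, 88.5-fold over the median of the others. Its summed lymphoid stroma markers (*Cxcl13*, *Ccl19* and 4 more found) were 14982 normalized counts, 8.57-fold over that median. By its label this tumor belongs to experiment 2, whereas its model's 7 remaining tumors belong to experiment 1, so that values without it are also values within 1 experiment. Skeletal muscle markers were highest in NAM-treated M/D tumors 2 and 4, with summed levels of 72382 and 227370 normalized counts, against 24728 or less in the other M/D-driven tumors. The part of these cell contents in the results was not tested, unless a value is given. In RNA of whole tumors, fewer cells of a type and less RNA per cell cannot be told apart.

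RANKL transcripts differed widely between M/D-driven tumors, with and without NAM. *Tnfsf11* (GSMG0012698, chr14:78277445-78308044 on mm10) had 458, 3949, 651 and 686 normalized counts in untreated M/D tumors 1 to 4, and 4533, 454, 12806 and 289 in NAM-treated M/D tumors 1 to 4. Untreated tumor 2 and NAM-treated tumors 1 and 3 formed the upper end, and the groups overlapped. The fitted difference was 0.81 on the log2 scale (SE 1.26, 95% interval -2.08 to 3.70, limma adjusted p = 0.899). In AT3 tumors *Tnfsf11* was low, with 107, 22.3 and 89.5 normalized counts in untreated and 68.0, 15.1 and 46.3 in NAM-treated tumors. These groups overlapped as well, with a log2 difference of -0.71 (SE 0.72, adjusted p = 0.542).

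Transcripts of the receptor RANK were called higher with NAM in AT3 tumors and were not called in M/D-driven ones, a difference between models that was itself not called (the interaction term is given further on). *Tnfrsf11a* (GSMG0000649, chr1:105780717-105847981) had 627, 1139.7, 757 and 343 normalized counts in untreated and 568, 229, 743 and 1573 in NAM-treated M/D tumors, which overlapped over most of their range. The log2 difference was -0.072 (SE 0.60, 95% interval -1.44 to 1.30, adjusted p = 0.986). In AT3 tumors the gene had 69.6, 89.3 and 71.6 normalized counts without NAM, against 124, 183 and 188 with it. The lowest NAM-treated AT3 tumor lay above the highest untreated one. The rise of 1.07 on the log2 scale (SE 0.31, 2.11-fold) passed the thresholds used for calls here, namely a limma p of 0.05 or less before any adjustment together with a change of 1.5-fold or more, whereas the adjusted p over all genes was 0.166. Differences between NAM-treated and untreated AT3 tumors followed transcript length across genes (Spearman rho 0.59, across genes, which are not independent replicates), and with this trend removed the rise of *Tnfrsf11a* was 0.59 on the log2 scale and still passed the thresholds.

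Transcripts of the decoy receptor osteoprotegerin were called lower with NAM in both models, with overlapping groups in each. *Tnfrsf11b* (GSMG0013975, chr15:54250619-54278484) had 2128, 1787, 3114 and 1652 normalized counts in untreated M/D tumors, and 51.8, 1672, 197 and 315 in NAM-treated ones. NAM-treated tumors 1, 3 and 4 lay under every untreated tumor, while NAM-treated tumor 2 stood at the level of untreated tumor 4, so that the groups just overlapped. It fell by 2.95 on the log2 scale (SE 0.90, 7.72-fold, adjusted p = 0.734) and passed the thresholds. Without NAM-treated tumor 1, poor in epithelial markers, the difference was -2.16 (adjusted p = 0.812), and it stayed past the thresholds when any other M/D-driven tumor was left out. The edgeR quasi-likelihood test on recovered reads gave -1.9985 and did not call it, nor was it called with values divided by summed epithelial markers (-0.96, on a scale that moves the median of all genes to 2.00). In AT3 tumors *Tnfrsf11b* had 699, 223 and 288 normalized counts without NAM and 139, 260 and 113 with it. It fell by 1.15 on the log2 scale (SE 0.47, adjusted p = 0.189) past the thresholds with overlapping groups, and this call was lost when untreated tumor 1 or NAM-treated tumor 1 or 3 was left out (-0.66, -1.05 and -0.90) or when the trend with length was removed (-0.93).

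**Figure D1:**
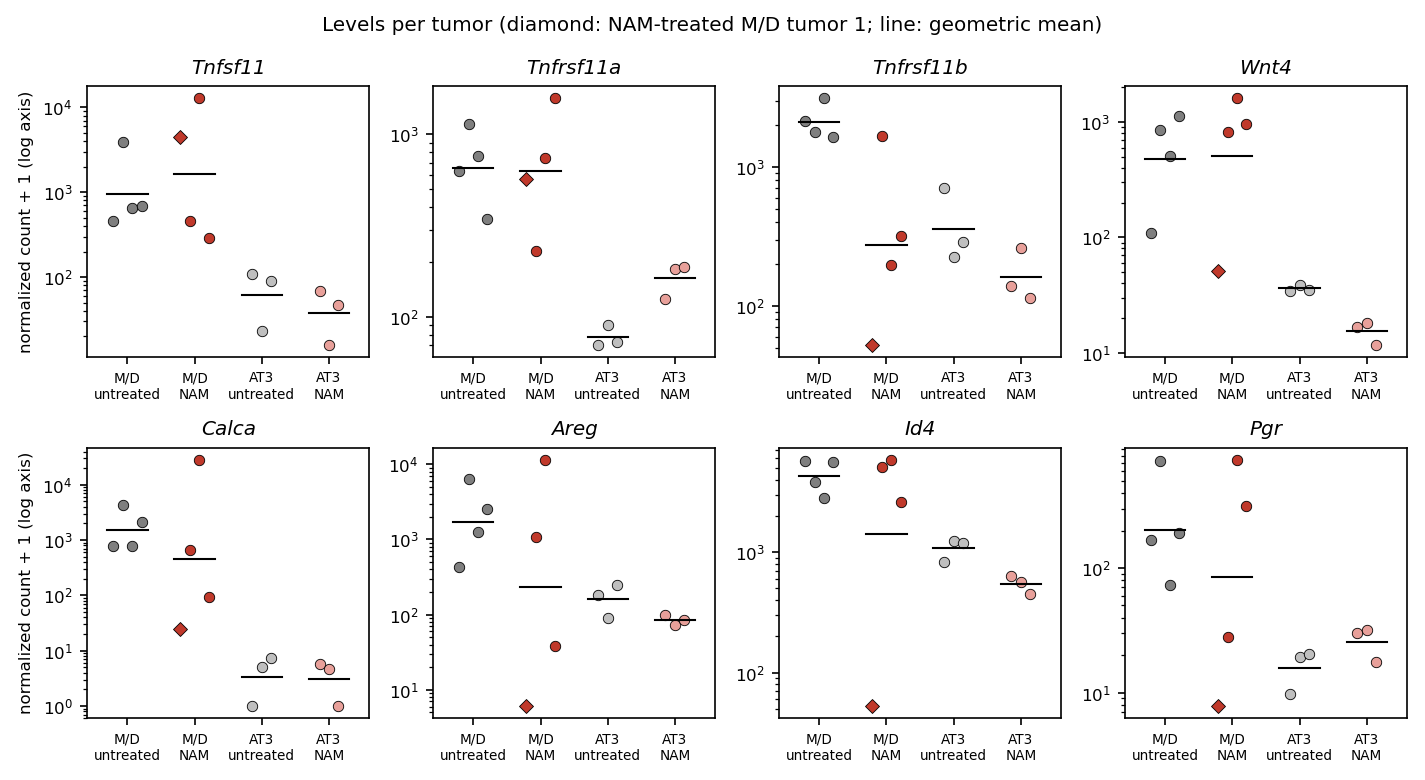
Normalized count + 1 (log axis) of the 7 genes of the axis and of *Pgr* in each tumor, by model and treatment. Points are tumors, the diamond is NAM-treated M/D tumor 1, and lines are geometric means of a group. *Tnfrsf11b* lay between 1652 and 3114 normalized counts in untreated M/D tumors and reached down to 51.8 with NAM, and *Calca* stayed at 6.51 or less in all AT3 tumors.

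The balance of RANKL over osteoprotegerin was followed as log2((*Tnfsf11* + 1)/(*Tnfrsf11b* + 1)), a ratio of counts within a tumor on which, but for the added 1, the scaling of tumors has no bearing. It was -2.21, 1.14, -2.26 and -1.27 in untreated M/D tumors and 6.42, -1.88, 6.02 and -0.13 in NAM-treated ones. NAM-treated tumors 1 and 3 exceeded all other tumors of both models, both having high *Tnfsf11* and low *Tnfrsf11b* counts, whereas NAM-treated tumor 2 fell among untreated tumors. The means were 2.61 ± 4.23 (SD, n = 4) with NAM and -1.15 ± 1.59 (SD, n = 4) without, and the difference of 3.76 was smaller than the spread of NAM-treated tumors (exact two-sided permutation p = 0.2, with 0.0286 the smallest possible). Without NAM-treated tumor 1 the difference was 2.49. In AT3 tumors the ratio was -2.69, -3.27 and -1.68 without NAM and -1.01, -4.02 and -1.27 with it, a difference of 0.44 (exact permutation p = 0.8) that turned to -0.10 without NAM-treated AT3 tumor 1. With 3 tumors against 3, this test cannot go below 0.1.

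**Figure D2:**
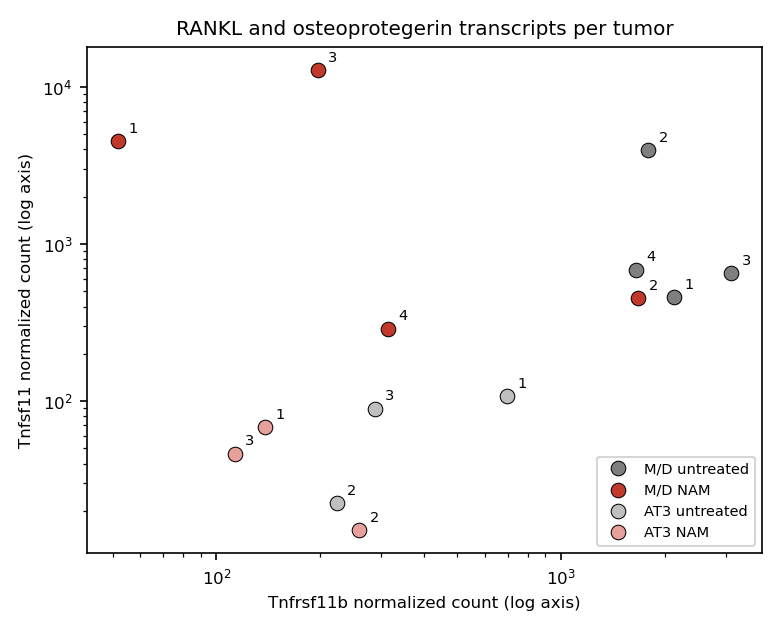
*Tnfsf11* (RANKL) against *Tnfrsf11b* (osteoprotegerin) in normalized counts, both on log axes. Each point is a tumor with the number of its label. NAM-treated M/D tumors 1 and 3 stand alone at the upper left with 4533 and 12806 normalized counts of *Tnfsf11*, and AT3 tumors sit at the bottom with 107 or less.

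The promoters of *Tnfsf11*, *Calca* and *Areg* are given since these progestin mediators were all high in untreated tumor 2 and NAM-treated tumor 3 of the M/D model, as described next. Sequences are RefSeq's for GRCm38.p6, from 250 bases before to 50 after the start, read 5′ to 3′ on the strand of the gene. They lie at chr14:78307994-78308293 (minus strand) for *Tnfsf11*, chr7:114636308-114636607 (minus strand) for *Calca* and chr5:91139349-91139648 (plus strand) for *Areg*. Capitals mark TATAA (the core of a TATA box) and TGACG (the core of the cAMP response element) on either strand, motifs that were chosen after the promoters had been seen.
Tnfsf11: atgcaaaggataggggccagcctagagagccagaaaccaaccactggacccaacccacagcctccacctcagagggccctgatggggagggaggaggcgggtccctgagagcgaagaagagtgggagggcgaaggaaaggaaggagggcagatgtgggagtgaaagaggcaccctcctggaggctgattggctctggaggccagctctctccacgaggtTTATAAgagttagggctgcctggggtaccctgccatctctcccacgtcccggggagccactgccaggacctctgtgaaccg
Calca: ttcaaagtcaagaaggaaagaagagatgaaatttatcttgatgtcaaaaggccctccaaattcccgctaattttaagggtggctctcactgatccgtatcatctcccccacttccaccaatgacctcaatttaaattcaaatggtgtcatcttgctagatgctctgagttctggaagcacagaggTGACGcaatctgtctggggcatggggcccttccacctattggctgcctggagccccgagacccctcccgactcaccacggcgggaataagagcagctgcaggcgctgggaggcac
Areg: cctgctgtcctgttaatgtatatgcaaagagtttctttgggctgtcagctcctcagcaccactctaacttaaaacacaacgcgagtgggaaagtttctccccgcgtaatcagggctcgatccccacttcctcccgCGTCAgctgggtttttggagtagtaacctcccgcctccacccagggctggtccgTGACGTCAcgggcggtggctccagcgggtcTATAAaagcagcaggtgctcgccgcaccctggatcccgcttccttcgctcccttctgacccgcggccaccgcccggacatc
The full palindrome TGACGTCA, to which factors of the CREB family bind, was found in the *Areg* promoter at 61 bases before the start, beside TATAA at -31, and is held by 1.79% of 32851 mouse promoters of the same length. The shorter TGACG, held by 20.81% of promoters on either strand, was found in *Areg* at -115, -61 and -58 (the last pair being the palindrome read on both strands), in *Calca* at -65, in *Tnfrsf11a* at -134 and in *Id4* at -229. *Tnfsf11* had TATAA at -31 and -30 (overlapping on opposite strands; 24.87% of promoters hold it) and no TGACG in this window. TGTTCT, a half-site of the progesterone receptor, was in none of the 6 promoters found and is held by 18.97% of all. A promoter was found for 6 of the 7 genes.

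The secreted mediators *Calca* and *Areg* spanned the widest ranges of the axis. *Calca* (GSMG0036554, chr7:114631480-114636357) had 781, 4341, 789 and 2141 normalized counts in untreated M/D tumors, and 23.8, 654, 28345 and 92.3 in NAM-treated ones. NAM-treated tumor 3 was the highest of all, 1193-fold above NAM-treated tumor 1. *Areg* (GSMG0029413, chr5:91139599-91148432) had 431, 6367, 1259 and 2544 normalized counts in untreated and 5.09, 1070.4, 11445 and 37.7 in NAM-treated M/D tumors. It followed the same order at the top, with NAM-treated tumor 3 and untreated tumor 2 above all others, and its lowest tumors were NAM-treated 1 and 4. The log2 differences with NAM were -1.77 for *Calca* (SE 1.94, adjusted p = 0.847) and -2.89 for *Areg* (SE 2.17, adjusted p = 0.791), both inside the spread between tumors. These results depended on single tumors. Without NAM-treated tumor 3, *Calca* (-3.75) and *Areg* (-4.77) passed the thresholds as lower (adjusted p = 0.758 for both). Without NAM-treated tumor 1, poor in epithelial markers, the differences shrank to -0.37 for *Calca* and -1.14 for *Areg*, and neither was called. The edgeR test, which compares mean counts, turned the directions to 1.84 for *Calca* and 0.22 for *Areg*. In AT3 tumors, *Areg* had 183, 90.4 and 243 normalized counts without NAM and 97.2, 71.5 and 82.6 with it, and fell by 0.93 on the log2 scale (SE 0.40, adjusted p = 0.201), past the thresholds. The *Areg* groups overlapped, and with the trend with length removed the difference was -0.35 and no longer called. The call was also lost without untreated AT3 tumor 1 or 3 (-0.83 and -0.62) or NAM-treated AT3 tumor 2 or 3 (-0.82 and -0.92). *Calca* had between 0 and 8 reads per AT3 tumor, under the filter on low values, and was not tested for NAM there. Reads of *Calca* do not tell calcitonin from the calcitonin gene-related peptide, which are splice forms of 1 gene.

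*Wnt4*, the WNT ligand, was higher in every M/D-driven tumor than in any AT3 tumor, and fell with NAM in the latter. The margin between models was narrow on values rescaled over all 14 tumors, with 44.9 in NAM-treated M/D tumor 1 and 43.1 in untreated AT3 tumor 2. *Wnt4* (GSMG0027258, chr4:137277508-137299501) had 108, 852, 504 and 1134 normalized counts in untreated M/D tumors and 50.1, 818, 1602 and 959 in NAM-treated ones. Untreated tumor 1 and NAM-treated tumor 1 were the low ones, and the groups overlapped (log2 difference 0.069, SE 1.16, 95% interval -2.58 to 2.71, adjusted p = 0.992). In AT3 tumors it had 33.3, 37.6 and 34.2 normalized counts without NAM, and 15.8, 16.9 and 10.7 with it. These are 23 to 42 reads against 13 to 18, and the groups did not overlap. It fell by 1.24 on the log2 scale (SE 0.46, 2.36-fold, adjusted p = 0.174), which passed the thresholds. With the trend with length removed it was -1.68. The call was lost without untreated AT3 tumor 3 (-1.26) or NAM-treated AT3 tumor 2 or 3 (-1.36 and -1.05).

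*Id4* was abundant and even in untreated M/D tumors, with a 2.01-fold range. *Id4* (GSMG0009732, chr13:48261228-48264036) had 5702, 3838, 2839 and 5657 normalized counts there, against 51.8, 5098, 5848 and 2617 with NAM. NAM-treated tumor 1 was 112.9-fold below NAM-treated tumor 3, and the 3 others lay within the untreated range or next to it. The log2 difference of -1.60 (SE 1.38, adjusted p = 0.808) became -0.019 (SE 0.36) without NAM-treated tumor 1. In AT3 tumors *Id4* had 833, 1239 and 1201 normalized counts without NAM, and 633, 568 and 448 with it, with no overlap. It fell by 0.98 on the log2 scale (SE 0.25, 1.97-fold, adjusted p = 0.166), the difference stayed past the thresholds when any AT3 tumor was left out, and it was -1.05 with the trend with length removed.

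Across the 8 M/D-driven tumors, *Calca* and *Areg* rose and fell together. Pearson's r of their log2 values was 0.96 (Spearman's rho 0.98) and 0.94 without NAM-treated tumor 1, as a description over tumors that share a model. By the rule that takes the 3 genes of highest r among 14837, *Areg* was the second most alike of *Calca*, after *Gm14403* (0.97) and before *A230065H16Rik* (0.95). *Areg* was itself closest to *Serpine2*, *Gm14403* and *Gfod2* (0.98 to 0.97). *Tnfsf11* was closest to *Rgs2*, *Zfp574* and *Hic2* (0.94, 0.94 and 0.93). *Tnfrsf11a* was closest to *Adcy6*, *Vwa5a* and *Wdr19* (0.98 for all), *Tnfrsf11b* to *Arhgdig*, *Cwh43* and *Tnc* (0.98 for all), and *Wnt4* to *Zfp697*, *Tmem158* and *C330006A16Rik* (0.98, 0.97 and 0.97). For *Id4* they were *Ccdc91*, *Rbbp8nl* and *Fgfr1* (0.99 for all), but these values rested on NAM-treated tumor 1, without which they were 0.82, 0.78 and 0.82.

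The level of the progesterone receptor was set against the axis, since M/D-driven tumors were induced with a progestin pellet together with DMBA. *Pgr* had 167, 718, 71.3 and 189 normalized counts in untreated M/D tumors and 6.79, 26.8, 738 and 315 in NAM-treated ones. Untreated tumor 2 and NAM-treated tumor 3, the same pair that topped *Calca* and *Areg*, held the most. Of 13 relations computed over the 8 tumors (*Pgr* with 7 genes and *Tnfsf11* with the 6 others), 0 reached an adjusted p of 0.05. The highest was *Pgr* with *Calca* (r = 0.73, exact permutation p = 0.0404, adjusted p = 0.239, and rho = 0.74, p = 0.0458, adjusted p = 0.298). Without NAM-treated tumors 1 and 2, the tumors farthest from the median of *Pgr*, r was 0.53. With only 1 of these left out, r was 0.49 without tumor 1 and 0.77 without tumor 2. Without NAM-treated tumor 4 alone, which has 315 normalized counts of *Pgr* beside 92.3 of *Calca* and 37.7 of *Areg*, r with *Pgr* was 0.92 for *Calca* and 0.87 for *Areg* (exact permutation adjusted p = 0.00516 and 0.0374). The values of that tumor go against these relations, and the adjustment covers the 13 relations of 1 fit, not the choice of the tumor left out. *Pgr* with *Wnt4* gave r = 0.67 and rho = 0.81, each with an exact permutation p adjusted to 0.239 and 0.283. Without NAM-treated tumor 1, poor in epithelial markers, r with *Pgr* was 0.49 for *Calca*, 0.28 for *Areg*, 0.29 for *Wnt4* and 0.021 for *Id4*. In the same fit it was 0.68 for *Tnfsf11*, 0.68 for *Tnfrsf11a* and -0.56 for *Tnfrsf11b*. *Pgr* with *Tnfsf11* gave r = 0.17 (exact permutation p = 0.692) and rho = 0.24 (p = 0.582), and r was 0.73 without NAM-treated tumors 1 and 2. *Tnfsf11* with *Calca* gave r = 0.41 (exact permutation p = 0.311) and rho = 0.50 (p = 0.216). NAM-treated tumor 1, the one rich in precursor B cell markers, held 4533 normalized counts of *Tnfsf11* beside 23.8 of *Calca* and 6.79 of *Pgr*. Without it r of *Tnfsf11* with *Calca* was 0.93 over the 7 tumors of experiment 1 (exact permutation adjusted p = 0.00258, again not adjusted for the choice of the tumor left out). With NAM-treated tumors 1 and 3 both left out, the 2 farthest from the median of *Tnfsf11*, r was 0.83 and rho 1.0 over 6 tumors (exact permutation p = 0.0514 for r), whereas with NAM-treated tumor 1 kept and tumor 3 left out r was -0.067. Taken as deviations from the means of treated and untreated groups, *Pgr* gave 0.70 with *Calca*, 0.71 with *Wnt4* and 0.25 with *Tnfsf11*.

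**Figure D3:**
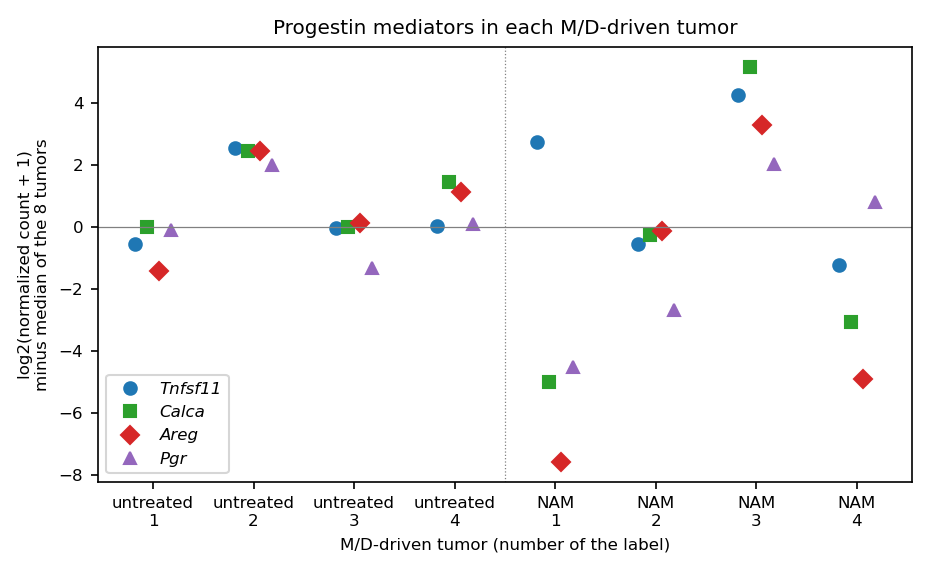
*Tnfsf11*, *Calca*, *Areg* and *Pgr* in each M/D-driven tumor, as log2(normalized count + 1) minus the median of the 8 tumors; the dotted line parts untreated from NAM-treated tumors. All 4 genes stand above their median in untreated tumor 2 and NAM-treated tumor 3, and NAM-treated tumor 1 has *Tnfsf11* above it with the 3 others below.

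The whole axis was higher in M/D-driven than in AT3 tumors in the absence of NAM. For this comparison, values were rescaled over all 14 tumors, because the models had been normalized apart. *Calca* had 1808 ± 1525 (SD, n = 4) rescaled counts in M/D-driven and 4.14 ± 3.91 (SD, n = 3) in AT3 tumors, and was 8.55 higher on the log2 scale (SE 0.87, adjusted p = 2.05e-04). *Tnfsf11* had 1292 ± 1523 against 86.9 ± 54.1 (log2 difference 3.56, SE 0.81, adjusted p = 0.00679), and *Wnt4* 581 ± 399 against 41.2 ± 1.67 (3.34, SE 0.73, adjusted p = 0.00559). *Areg* (3.03), *Tnfrsf11a* (2.69), *Tnfrsf11b* (2.16) and *Id4* (1.61) followed, with adjusted p of 0.0137, 0.00101, 0.00284 and 0.00236. All 7 genes passed the thresholds as higher, where 30.2% of the 21560 genes tested did, and all 7 did so at an adjusted p of at most 0.05, where 27.7% of genes did. Without untreated AT3 tumor 2, *Areg* had an adjusted p of 0.0618 and was the exception at the latter level. In all 7 the groups did not overlap, as in 54.0% of genes. The median difference of the 7 genes was 3.03 on the log2 scale, against 0.043 over all genes tested.

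The summed level of epithelial marker transcripts was also higher in untreated M/D-driven than in untreated AT3 tumors. Summed epithelial markers were 409320 to 1143800 normalized counts in untreated M/D and 92541 to 117610 in untreated AT3 tumors. When the values of each tumor were divided by this sum, an alternative added after the data were seen, the median of all genes moved to -2.12 on the log2 scale, and *Calca* alone remained called (6.39, SE 0.82, adjusted p = 1.76e-06), where 5.24% of genes were higher. On that scale *Tnfsf11* was at 1.40 (adjusted p = 0.109), *Wnt4* at 1.18 (adjusted p = 0.119), *Areg* at 0.87, *Tnfrsf11a* at 0.53, *Tnfrsf11b* at 0.00052 and *Id4* at -0.55. *Pgr* was 3.30 higher in M/D-driven than AT3 tumors (SE 0.74, adjusted p = 0.00629) and *Esr1*, the estrogen receptor, 5.99 higher (SE 0.96, adjusted p = 0.00141). Divided by epithelial markers, the former was at 1.14 (adjusted p = 0.220) and the latter at 3.83 (adjusted p = 4.90e-04).

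In tumors exposed to NAM, which the previous comparison did not use, the models differed less evenly. *Calca* (6.95, SE 2.18, adjusted p = 0.0931), *Tnfsf11* (5.12, SE 1.33, adjusted p = 0.0554), *Wnt4* (4.70, SE 1.10, adjusted p = 0.0413) and *Tnfrsf11a* (1.59, SE 0.59, adjusted p = 0.139) were higher in M/D-driven tumors, 4 of 7 genes against 15.3% of all genes tested. *Wnt4* alone had an adjusted p of at most 0.05, as had 5.02% of genes in this direction. The groups of *Calca*, *Tnfsf11* and *Wnt4* did not overlap, 3 of 7 against 27.8% of genes. *Tnfrsf11b* had 503 ± 684 (SD, n = 4) rescaled counts in M/D-driven and 193 ± 86.9 (SD, n = 3) in AT3 tumors, and this difference did not pass (0.41, SE 1.03, 95% interval -1.98 to 2.79, adjusted p = 0.824). *Areg* (1.12, SE 2.29) and *Id4* (1.03, SE 1.52) did not pass either. Without NAM-treated M/D tumor 1, 5 of the 7 genes were higher, where 4273 of the 21136 genes tested in that fit were. *Tnfrsf11a* was no longer called without NAM-treated M/D tumor 3 or 4 or without any 1 of the NAM-treated AT3 tumors, with log2 differences from 1.16 to 1.68 in these fits. The adjusted p of *Wnt4* was 5.99e-04 without NAM-treated M/D tumor 1 and 0.0713 to 0.150 when any other tumor was left out.

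**Figure D4:**
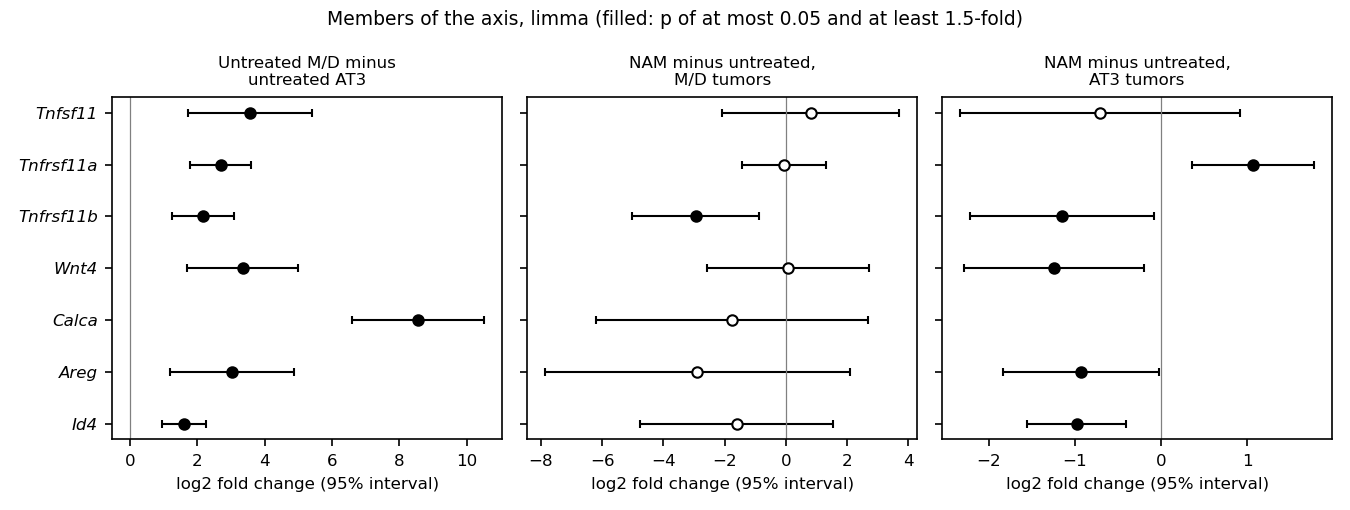
Log2 fold changes of the 7 genes with 95% intervals (limma), for untreated M/D minus untreated AT3 tumors, and for NAM minus untreated within each model. Filled points passed p of at most 0.05 and 1.5-fold. All 7 are filled at the left, *Tnfrsf11b* is the single filled point for NAM in M/D-driven tumors (-2.95), and *Tnfrsf11a* is the single filled point above 0 for NAM in AT3 tumors (1.07); *Calca* is missing there since it was under the filter.

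Counted over the axis, NAM in M/D-driven tumors was accompanied by 1 gene called lower (*Tnfrsf11b*) out of 7, where 3.19% of the 21700 genes tested were lower, and by 0 called higher, where 3.03% were. The groups overlapped for all 7, whereas they did not for 4.43% of all genes. The median log2 difference of the 7 genes was -1.60, against 0.012 over all genes, and -0.026 without NAM-treated tumor 1. In AT3 tumors, 1 of the 6 genes tested was higher, where 12.2% of 19281 genes were, and 4 (*Id4*, *Tnfrsf11b*, *Wnt4* and *Areg*) were lower, where 10.9% were. Groups did not overlap for *Tnfrsf11a*, *Id4* and *Wnt4*, 3 of 6 against 22.6% of genes. At an adjusted p of 0.05, the main limma fits called 0 of these genes in either model, and edgeR 0 as well, whereas DESeq2 called 0 in M/D-driven and 2 in AT3 tumors. Over all genes, limma called 1 at that level in each model (0.00461% and 0.00519%), edgeR 0 (0.0%), and DESeq2 0.77% in M/D-driven and 10.6% in AT3 tumors. Without NAM-treated AT3 tumor 1, limma called *Tnfrsf11a* and *Id4* (adjusted p = 0.0375 and 0.0378), where 2498 of 19301 genes passed. Without untreated AT3 tumor 2 it called *Areg* (adjusted p = 0.0442), where 2520 of 18933 genes passed. It called 0 of the axis genes when any other AT3 tumor was left out. At a p of 0.05 or less before adjustment, edgeR had 1747 genes in M/D-driven and 4914 in AT3 tumors. Summed epithelial markers of AT3 tumors were 81628 to 92654 normalized counts with NAM and 92541 to 117610 without, and with values divided by them *Tnfrsf11a* (1.34) was still called higher and *Id4* (-0.72) alone lower. On that scale 21.6% of all genes were higher and 3.52% lower, with a median of 0.22. With the spread estimated over all 14 tumors in 1 fit, 0 of the 6 genes was called in AT3 tumors. Each NAM comparison uses the untreated tumors of its model, which also entered the comparison of models, so that calls across these comparisons are not independent.

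Whether NAM acted differently in the 2 models was tested by an interaction term over the 14 tumors. It called 0 of the 7 genes at the thresholds, where 15.1% of 22687 genes passed in either direction. The interaction was -1.10 for *Tnfrsf11a* (SE 0.75, 95% interval -2.71 to 0.50, adjusted p = 0.474) and -1.75 for *Tnfrsf11b* (SE 1.19, adjusted p = 0.475), and the edgeR test also called 0 of the 7. *Wnt4* passed as more positive in M/D-driven tumors only when NAM-treated M/D tumor 1 was left out (2.45), and *Tnfrsf11b* (-2.64) and *Tnfrsf11a* (-1.53) passed as more negative without NAM-treated M/D tumor 2 and 4, respectively.

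Genes around the axis were taken from 6 lists, which share some members with it. Between untreated models, the shares of all genes called were the 30.2% given above for higher and 26.5% for lower, and the median over all genes was 0.043 on the log2 scale. The medians of all genes for NAM were 0.012 in M/D-driven and -0.048 in AT3 tumors. Values of the lists in AT3 tumors are given without removal of the trend with transcript length described above. For *Pgr* and hormone-sensing luminal genes, 6 of 10 were higher and 1 lower in untreated M/D than AT3 tumors (median 3.17), with *Gata3*, a luminal transcription factor, at 3.62 (SE 0.38). In NAM-treated M/D-driven tumors 0 of the 10 was called against untreated ones, *Pgr* being at -1.26 (SE 1.43) and *Esr1* at 0.46 (SE 0.68). In AT3 tumors *Esr1* was higher with NAM (2.70, SE 1.03, adjusted p = 0.177) at 9.72, 33.9 and 54.5 normalized counts against 0, 6.09 and 9.77, groups that overlapped at these low levels, and this call was lost in 3 of the 6 fits that left out 1 tumor.

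RANK signalling genes were more often higher than lower in untreated M/D-driven tumors, with 14 of 21 higher and 1 lower (median 0.93). *Nfatc1*, a transcription factor downstream of RANK, was 1.65 higher (SE 0.37), *Nfkbia*, an inhibitor of NF-kB, was 1.52 higher (SE 0.22), and *Id2*, an inhibitor of basic helix-loop-helix factors, fell by 4.01 on the log2 scale (SE 0.33), from 42799 ± 12091 rescaled counts in AT3 to 2737 ± 1076 in M/D-driven tumors (SD, n = 3 and 4). With NAM, 0 of 21 was called in M/D-driven tumors (median 0.084). In AT3 tumors 5 of 21 were higher and 0 lower (median 0.49), beside 12.2% and 10.9% of all genes, among them *Nfatc1* (1.57, SE 0.52), the adaptor *Traf6* (1.28, SE 0.36) and the NF-kB regulator *Ikbkg* (0.87, SE 0.29). With 1 AT3 tumor left out at a time, the calls of *Nfatc1* and *Ikbkg* were each lost in 2 of 6 fits. The interaction was called for 3 of 21, beside the 15.1% of all genes given above, all more negative in M/D-driven tumors (*Traf6* -1.37, *Ikbkg* -0.89, *Rela* -0.74). In the other lists it was called as more negative for 8 of 26 WNT and R-spondin genes (*Lgr5* -3.54, *Wnt5a* -3.40 and *Axin2* -3.10 leading) and 3 of 14 EGF receptor ligand genes (*Erbb3* -2.96, *Adam17* -1.44, *Rhbdf2* -0.81), as more positive for 1 of 12 ID and alveolar switch genes (*Id3* 1.96), and for 0 of the hormone-sensing and calcitonin genes.

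For WNT and R-spondin genes, 16 of 26 tested were higher and 1 lower in untreated M/D than AT3 tumors (median 2.08). The ligands *Wnt10a* (7.93, SE 0.69) and *Wnt5a* (7.15, SE 0.66) and the WNT target *Axin2* (5.09, SE 0.72) led. NAM in M/D-driven tumors was accompanied by higher *Lef1* (3.39, SE 1.42) and lower *Lgr5* (-2.75, SE 1.15) and *Fzd1* (-1.12, SE 0.47), with overlapping groups for each (median of the 26 genes -0.68). *Lef1*, a WNT effector also used in precursor B cells, reached 5077 normalized counts in NAM-treated tumor 1 against 99.7 or less in untreated ones, and was at 2.07 and no longer called without that tumor. With 1 M/D-driven tumor left out at a time, *Lgr5* ranged from -3.85 to -1.71 and lost its call in 7 of 8 fits, *Fzd1* ranged from -1.51 to -0.71 and lost it in 6, and *Lef1* lost it in 5. In AT3 tumors 5 of 25 were higher and 1 lower with NAM (median 0.44), with *Znrf3* at 1.51 (SE 0.41), *Lrp6* at 1.48 (SE 0.53) and *Dkk3* at 1.32 (SE 0.43), of which *Lrp6* lost its call in 4 of 6 fits without 1 tumor.

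Receptor genes for *Calca* products differed in both directions between models. Among calcitonin and CGRP genes, 2 of 9 tested were higher and 4 lower in untreated M/D-driven tumors, with a median of -0.84. The receptor *Calcrl* was 1.89 higher (SE 0.46), while its partners *Ramp1* (-1.86, SE 0.35) and *Ramp3* (-1.70, SE 0.37) were lower. With NAM, *Calcrl* was higher in AT3 tumors (1.14, SE 0.46) and *Ramp3* (-1.10, SE 0.25) and *Ramp1* (-1.04, SE 0.35) lower, whereas 0 of 9 was called in M/D-driven tumors. Of amphiregulin and EGF receptor ligand genes, 9 of 14 were higher and 0 lower in untreated M/D than AT3 tumors (median 1.74), led by the ligands *Ereg* (8.12, SE 1.94) and *Epgn* (5.38, SE 1.37) and the receptor *Erbb3* (3.78, SE 0.35). Untreated M/D tumor 2, the lowest of its group for both ligands, had 7.86 rescaled counts of *Ereg* and 31.4 of *Epgn*. Untreated AT3 tumors had up to 5.83 and 17.5. NAM in M/D-driven tumors was accompanied by 0 of 14 called (median -1.48). Without NAM-treated tumor 1, 3 of the 14 were lower (median -0.75), where 500 of the 21489 genes tested in that fit were lower and 612 higher. In the same fit 2 of 12 ID and alveolar switch genes and 1 of 21 RANK signalling genes were higher and 0 lower. Of 26 WNT and R-spondin genes 1 was higher and 1 lower. In AT3 tumors *Erbb3* (1.22, SE 0.43) and *Adam17*, the protease that sheds amphiregulin (1.03, SE 0.29), were higher and *Areg* alone of the 13 tested was lower (median 0.18). Of ID and alveolar switch genes, 6 of 12 were higher and 3 lower in untreated M/D-driven tumors (median 1.06), with *Sox10* at 7.83 (SE 0.44) and *Elf5* at 3.03 (SE 0.22) beside *Id2*. With NAM 0 of 12 was called in M/D-driven tumors, and 4 were higher and 3 lower in AT3 tumors (median 0.22), with *Sox10* at 1.48 (SE 0.51), *Notch1* at 1.23 (SE 0.54) and *Stat5b* at 1.13 (SE 0.29). With 1 AT3 tumor left out at a time, the calls of *Erbb3* and *Notch1* were each lost in 4 of 6 fits, those of *Calcrl* and *Ramp1* in 3 and that of *Sox10* in 2.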

How the data were processed

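PolyA RNA of 14 tumors was sequenced in paired-end mode. The authors mapped reads with STAR 2.4.0 on mm10, counted those on constitutive regions of genes of Mouse FAST DB, and divided the counts by DESeq2 size factors, so that the deposited values are a normalized signal per gene. All values (100%, within 0.01) were whole multiples of a step per tumor, which gave back the reads; 0 columns were left unmapped. The spread between tumors, counting error included, set the precision. Values were rescaled by the median ratio over 14 tumors for comparisons between models.

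limma 3.58.1 (R 4.3.3) with a mean-variance trend was fitted to log2(value + 1), which understates folds of low genes, for genes averaging 10 or more in 1 or more of the groups compared. Calls required a limma p of 0.05 or less before adjustment and 1.5-fold; the p values printed are adjusted over all genes of a fit (Benjamini-Hochberg), or exact (scipy 1.17.1). Alternatives were edgeR 4.0.16 and DESeq2 1.42.0 on recovered reads, other pseudocounts and filters, TMM factors, a replicate block, removal of trends with length and GC content (lengths for 85.1% and 85.2% of genes), and tumors left out in turn. The genes and lists were chosen with earlier results of these data known. Named were the 7 genes, *Pgr*, *Esr1*, up to 3 called genes of largest change per list and comparison, and the 3 genes most correlated with each of the 7 (mean of at least 50). Levels of some lists of markers are not reported here.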

Additional observations from a re-analysis of the deposited data

Results flagged for a closer look

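*Id4* in NAM-treated M/D-driven tumors was singled out because 1 tumor lay far from the 3 others. NAM-treated tumor 1 had 51.8 normalized counts of *Id4*, and its gap to the nearest tumor on the scale of log2(normalized count + 1) took 0.8292 of the range of the group, just above Dixon's 95% critical value for 4 samples. This tumor also had the lowest level of 9 of 9 epithelial markers, as given above, and their part in the value of *Id4* was not tested. Of 20 groups examined in this way, 1 was singled out, and chance alone is held to do so for about 1 in 20.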

How the results depend on the processing

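The 7 genes higher in untreated M/D than AT3 tumors kept this count, at the thresholds before adjustment, with every tumor left out in turn, with other pseudocounts and filters, TMM factors, values as deposited and edgeR; DESeq2 called 6 and gave no p for *Tnfsf11*. Divided by summed epithelial markers (chosen after seeing the data), 1 remained called, and the sign turned for *Id4* (-0.55), *Nfatc1* (-0.51), *Nfkbia* (-0.64) and *Calcrl* (-0.27), and in NAM-treated tumors for *Tnfrsf11b* (-0.075). For NAM in M/D-driven tumors, that scale, which moves the median of all genes to 2.00, left 0 genes lower and gave 1.91 for *Tnfrsf11a*, 0.22 for *Calca*, 0.38 for *Id4*, 0.73 for *Pgr* and 0.86 for *Fzd1*; in AT3 tumors it left 1 lower. edgeR called 0 lower in M/D-driven tumors, and edgeR and DESeq2 turned *Tnfrsf11a* (0.077 and 0.10) and *Areg* (0.22 and 0.23), and edgeR *Calca* (1.84), upward; DESeq2 gave no p for *Calca*. Removal of the trend with length and GC content turned *Tnfrsf11a* to 0.055, with and without the replicate block. For the interaction, edgeR turned *Calca* (2.33), *Areg* (1.25) and *Id4* (0.55). The cause of these turns was not tested.

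In AT3 tumors, the count of lower genes was 2 without a filter, 2 at a minimum group mean of 50 (5 genes tested), 2 with the trend removed and 0 with all 14 tumors in 1 fit, which also called 0 higher, as did the replicate block with the trend removed. The replicate block alone gave 3 lower genes in AT3 tumors and 1 in M/D-driven tumors. Deviations of same-numbered tumors had r of -0.44 to 0.11 in M/D-driven and, unevenly, -0.16 to 0.26 in AT3 tumors. Over all 19281 genes tested in AT3 tumors, limma with the block called 1296 at an adjusted p of 0.05, against 1 without it. None of the axis genes was among them. With the trend also removed it called 675 of 16429 genes, 1 of the axis included. Whether AT3 tumors of the same number are pairs is thus not settled, and the main fits did not take them as pairs. Paired by number, the exact sign-flip p of the RANKL ratio was 0.375 and 0.75.

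With 1 tumor left out at a time, genes lower with NAM numbered 1 to 3 in M/D-driven (3 without NAM-treated tumor 3) and 1 to 4 in AT3 tumors, and the interaction called 0 to 1 in either direction. *Tnfsf11* with NAM in M/D-driven tumors ranged from -0.17 to 1.65, *Tnfrsf11a* from -0.52 to 0.41 and *Wnt4* from -0.64 to 1.17. Between NAM-treated models *Tnfrsf11b* ranged from -0.48 to 1.19 and *Areg* from -0.75 to 2.85, and the interaction of *Id4* from -1.26 to 1.00. The ratio in AT3 tumors ranged from -0.10 to 1.40. Relations at an adjusted p of 0.05, adjusted within each fit only, numbered 0 to 2 (*Tnfsf11* with *Calca* when NAM-treated tumor 1 was left out, *Pgr* with *Calca* and *Areg* when NAM-treated tumor 4 was). Pearson's r with *Pgr* ranged from -0.20 to 0.68 for *Tnfsf11* and from -0.56 to 0.53 for *Tnfrsf11b*. For *Calca* r with *Pgr* ranged from 0.49 to 0.92, for *Areg* from 0.28 to 0.87 and for *Wnt4* from 0.29 to 0.81. For *Id4* it ranged from 0.021 to 0.86 and for *Tnfrsf11a* from 0.39 to 0.68. With *Tnfsf11*, r ranged from -0.078 to 0.55 for *Tnfrsf11a*, -0.40 to 0.45 for *Wnt4*, -0.067 to 0.93 for *Calca*, -0.10 to 0.82 for *Areg* and -0.63 to 0.34 for *Id4*.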
